A study of Mus musculus with 32 samples.

Results

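The genes of ER translocation and signal peptide processing were followed across 32 RNA-seq libraries of parathyroid cells. They were chosen by function, as the subunits of the signal recognition particle (SRP) and its receptor, the Sec61 translocon and its partners, the TRAP complex, the signal peptidase, the oligosaccharyltransferase and the KDEL receptors. The list holds 36 genes of the 35458 to which transcripts were summed. All 36 had reads and passed the filter on low counts, both among the 15698 genes tested between arms and among the 13135 tested between experiments.

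The material of a library was 10 to 20 red-fluorescent cells, collected singly under a micromanipulator, and all donor cells carried a tdTomato reporter in the Pth gene. The libraries form 8 experiments of 4 replicates, and the experiments form 4 arms. Control cells came from C57BL/6-Pthtm1(P2A-tdTomato)/+ mice, in control experiment 1 from a group labelled male at 8 weeks and in control experiment 2 from one labelled female at 11 weeks. The mouse-host arm holds Pth-tdTomato mouse ESC-derived cells (ESC, embryonic stem cells) that had complemented Gcm2-/- hosts on a BDF1B6 background at 9 weeks. Mouse-host experiments 1 to 3 are labelled female and experiment 4 male. The rat-host arm is 1 experiment with the same kind of ESC in a Gcm2-/- Wistar rat, labelled neonate with sex unknown. The graft arm is 1 experiment with grafted mESC-derived parathyroid cells out of Gcm2-/- mice, labelled male at 12 weeks. Gcm2 is the transcription factor that parathyroid glands need to form, so the hosts lack glands of their own. How the replicates divide over animals is not labelled. P-values over libraries therefore reflect the scatter of these 32 libraries only, and that scatter may be technical. Host, age, sex, preparation and sequencing cannot be told apart in the rat-host and graft arms, nor can the grafting itself in the graft arm.

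Secreted proteins are made on ribosomes that SRP brings, through its receptor, to the Sec61 channel of the endoplasmic reticulum (ER). During or just after passage the signal peptidase removes the signal peptide, and the oligosaccharyltransferase adds N-linked sugars to proteins that carry a site for them. Preproparathyroid hormone, the main product of parathyroid chief cells, is a textbook substrate of this route and loses its signal peptide in the ER.

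Reads per library ran from 29471254 to 32264864 in control experiment 1 and from 9470744 to 15098391 in the other 28 libraries. All 6 parathyroid markers (Pth, Gcm2, Casr, Chga, Gata3 and Kl) had reads in every arm. Pth and Chga together took 28.2% to 31% of reads by experiment, but 19.2% ± 0.812 (SD, n = 4) in the rat host. The summed level of 8 fibroblast markers averaged 71.5 CPM (TMM-scaled read counts relative to library size) in the rat host and 268 in the graft. It averaged 335 to 1323 in the other experiments, where mouse-host experiment 2 replicate 4 reached 2742 and 1 control experiment 2 library reached 3724. Summed markers of 10 further cell types averaged at most 43.4 CPM in any experiment. Some of their markers were at 0 in every arm (Cdh5, Kdr and Flt1 of 6 for endothelium, Cd3d, Cd3e and Cd3g of 6 for T cells, Foxn1 of 4 for thymic epithelium), while others had reads, so that T-cell sums reached 37.0 CPM and thymic epithelial sums 34.7 in single libraries.

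Transcript abundance of the members spanned more than 3 orders of magnitude. Levels of different genes were compared per length, in TPM (length-scaled transcript abundance), as means over the 8 experiments. Ssr4, a TRAP subunit, led with 1081 TPM and ranked 62 among 21743 protein-coding genes. It was followed by the signal peptidase subunit Spcs1 at 997 TPM, the oligosaccharyltransferase subunit Dad1 at 799, the channel subunit Sec61b at 674 and the oligosaccharyltransferase subunit Ost4 at 588. Levels inside a complex were uneven. Sec61a1, the channel-forming subunit, had 71.3 TPM, and the catalytic subunits of the oligosaccharyltransferase, Stt3a and Stt3b, had 106 and 13.5 TPM. At the low end stood the second channel-forming gene Sec61a2 with 8.69 TPM, the KDEL receptor Kdelr3 with 4.10 and the translocon partner Tram2 with 0.291. Below, TPM serves for levels of different genes and for a gene's share within its complex, where a common scale cancels. Its scale shifted in the rat host: the median log2 fold change of all genes tested in the rat host against the mouse host was 0.32 on the log2(TPM + 1) scale and -0.03 after TMM scaling. Single genes and sums were therefore compared between experiments in TMM-scaled CPM, and tests on TPM are alternatives only.

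**Figure D1:**
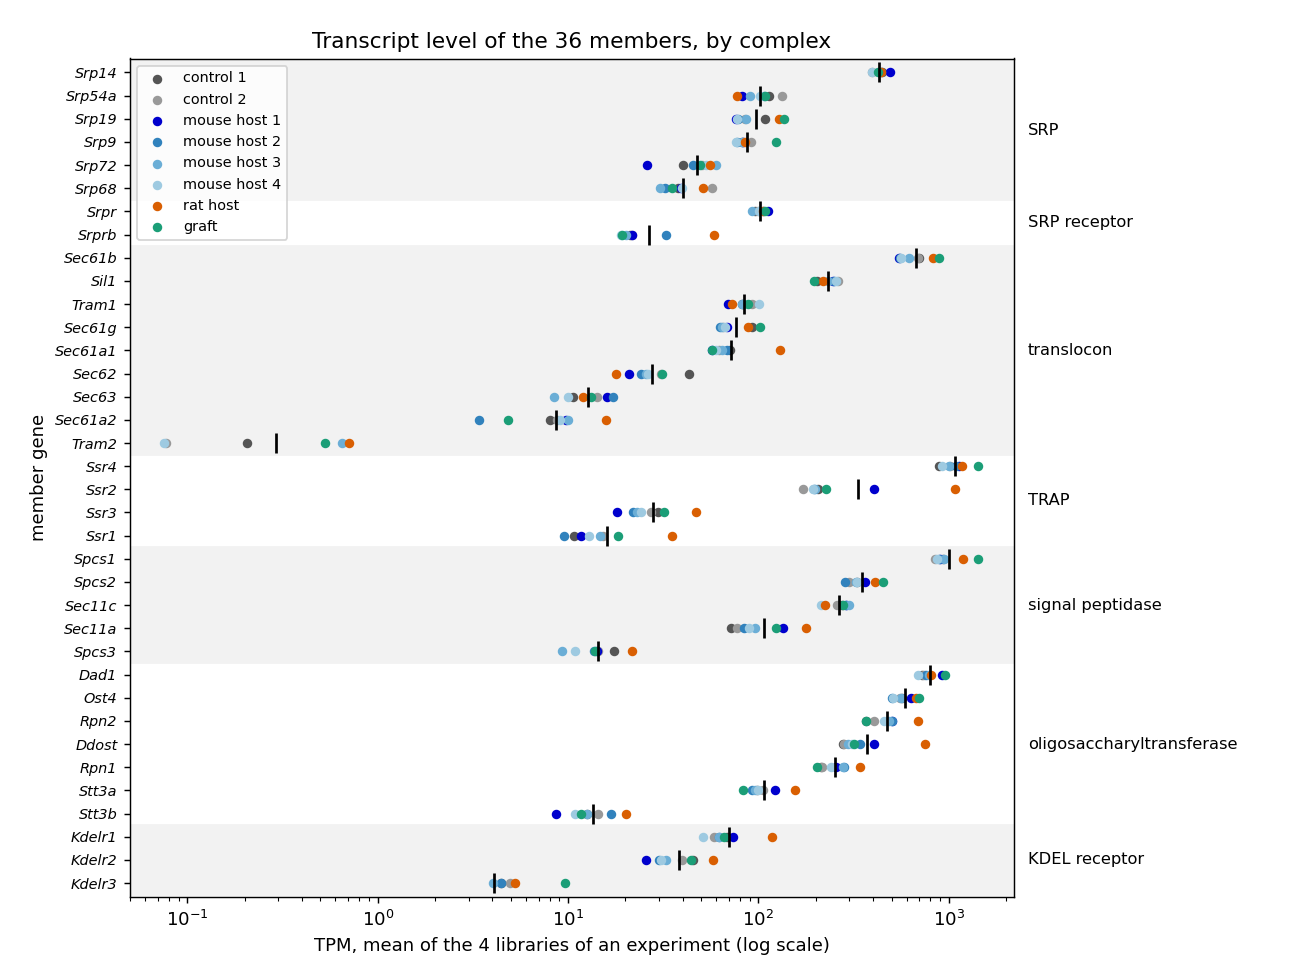
Mean TPM of each of the 36 members in each of the 8 experiments (coloured points, 4 libraries each, log axis), grouped by complex, with the mean over experiments as a black bar. Ssr4, Spcs1 and Dad1 lie to the right, Kdelr3 and Tram2 to the left, and means under 0.05 TPM are not drawn.

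Read counts of 17 of the 36 members differed among the 8 experiments (edgeR quasi-likelihood F-test over 32 libraries, Benjamini-Hochberg adjusted p under 0.05), where 10.9% of all genes tested did, and 25 had an unadjusted p under 0.05 (all genes 25.6%). Abundant genes are called more often: of the 20 members that averaged at least 100 CPM 12 were called, beside 38.2% of all genes at that level. The 17 were spread over 6 of the 7 complexes, with 3 of 9 translocon genes, 4 of 5 signal peptidase genes, 3 of 4 TRAP genes, 3 of 6 SRP genes, 1 of 2 receptor genes, 3 of 7 oligosaccharyltransferase genes and 0 of 3 KDEL receptors. Of these 17, 10 had their highest experiment mean in the graft and 4 in the rat host, and 7 had their lowest in the rat host and 5 in mouse-host experiment 2. Among all genes called in that test, 21.5% were highest in the graft and 28.5% in the rat host. Of the same genes 28.1% were lowest in the rat host and 8.79% in mouse-host experiment 2. No member had its lowest mean in the graft, where 18.4% of all genes tested had theirs.

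**Figure D2:**
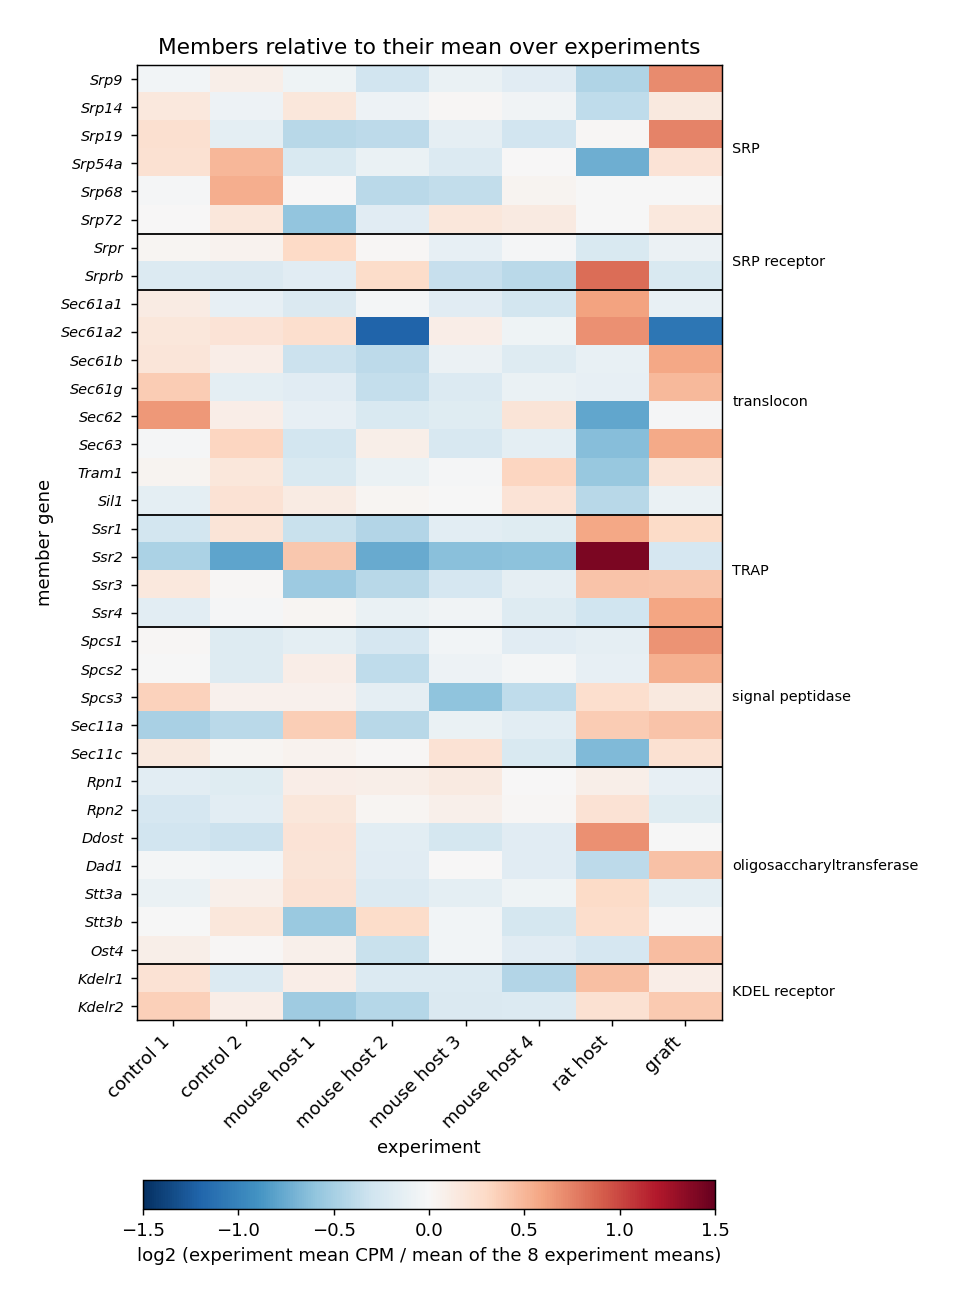
Log2 of each experiment's mean CPM over the mean of the 8 experiment means, for 34 members grouped by complex (Tram2 and Kdelr3, near 0 in several experiments, are left out). The graft column is red for most members of the signal peptidase and TRAP, and the rat-host column is red for Ssr2, Ddost and Srprb and blue for Sec62, Srp54a and Sec11c.

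Between arms, no member passed the test. There the 8 experiments, each the sum of its 4 libraries, were the replicates in edgeR's quasi-likelihood test, with 4 residual degrees of freedom. The rat host and the graft were taken to vary like the other arms. All 5 comparisons share experiments, and the shares of all genes given with them are not matched for abundance. For the mouse host against control 0 of 36 members were called, as were 0% of all genes, with 6 members at an unadjusted p under 0.05 beside 4.4% of all genes. Of these 2 were higher (all genes 2.27%) and 4 lower (all genes 2.13%). For the rat host against the mouse host the members' count was 0 (all genes 0.643%), with 11 at an unadjusted p under 0.05 (all genes 11.6%), 8 higher (all genes 6.29%) and 3 lower (all genes 5.28%). For the graft against the mouse host it was 0 (all genes 0.115%), with 13 at that level (all genes 12.4%), all 13 higher (all genes higher 4.51%, lower 7.85%). For the rat host against control it was 0 (all genes 0.261%), with 12 at that level (all genes 11.7%), 7 higher (all genes 6.34%) and 5 lower (all genes 5.38%). For the graft against control it was 0 (all genes 0.0382%), with 8 at that level (all genes 8.84%), all 8 higher (all genes higher 2.63%, lower 6.2%). DESeq2 on the same sums called 0, 6, 5, 5 and 2 members in these 5 comparisons, beside 0.758%, 5.69%, 6.54%, 5.59% and 4.01% of all genes.

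The median log2 fold change of the members was -0.16 for the mouse host against control, 0.18 for the rat host against the mouse host and 0.30 for the graft against the mouse host. Over all genes tested these medians were 0.00, -0.03 and -0.09. Against control the members' median was 0.00 for the rat host, with 18 members positive and 18 negative, and 0.18 for the graft, with 26 positive, beside -0.02 and -0.05 over all genes. Of all genes tested 46.2% were positive for the rat host and 43.8% for the graft. With single libraries as replicates, which counts libraries of 1 experiment as independent, edgeR called 11 members in the rat host against the mouse host and 9 in the graft against the mouse host, beside 5.91% and 3.63% of all genes. Against control it called 9 members for the rat host and 5 for the graft, beside 6.78% and 1.35% of all genes.

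SRP binds the signal sequence through its GTPase subunit, encoded in the mouse by Srp54a and near-identical copies, while Srp9 and Srp14 form the part that slows elongation. Srp14 was the most abundant SRP gene, with 432 TPM, and ranged from 147 to 319 CPM in the mouse host, 188 to 262 in control, 151 to 180 in the rat host and 200 to 282 in the graft. Its experiments did not differ past the threshold (edgeR, adjusted p = 0.243), and without mouse-host experiment 4 replicate 1, the 319 CPM library, the adjusted p was 0.0104.

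Srp9 had 124, 207, 164 and 136 CPM in the 4 graft libraries. Mouse-host libraries ran from 69.3 to 110 with a median of 83.4, control libraries from 58.6 to 126, and rat-host libraries from 67.4 to 74.9. All graft libraries thus lay above all mouse-host libraries, while 1 of 8 control libraries reached into the graft's range. Srp9 differed among experiments (edgeR, adjusted p = 0.00289). Its log2 fold change for the graft against the mouse host was 0.88 ± 0.19 (SE of the fit), and the adjusted p of 0.132 did not pass the test between arms.

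Srp54a was lowest in the rat host, with 72.7, 101, 109 and 73.3 CPM. Control libraries ran from 143 to 239 with a median of 184, mouse-host libraries from 89.0 to 188 with a median of 134, and graft libraries from 146 to 196. Rat-host libraries did not overlap with control or graft libraries and did overlap with mouse-host libraries. The experiments differed (edgeR, adjusted p = 0.00125). The log2 fold change was -1.06 ± 0.22 for the rat host against control (adjusted p = 0.111) and -0.51 ± 0.15 for the mouse host against control (adjusted p = 0.892). Reads of Srp54a, Srp54b and Srp54c cannot be parted with certainty, since the copies are nearly alike. Srp54a took 57.2% to 64.1% of their summed TPM by experiment.

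Srp19, which helps the particle's RNA to fold for binding, had 84.6, 79.1, 99.1 and 102 CPM in the graft. The other 28 libraries lay between 22 and 73.5 CPM, below every graft library. Its F-test passed (edgeR, adjusted p = 0.0265) but not without graft replicate 3 (0.0667) or graft replicate 4 (0.0793). The scaffold subunits Srp68 and Srp72 overlapped between all arms, and neither differed among experiments (adjusted p = 0.204 and 0.417).

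The SRP receptor has a peripheral subunit, Srpr, and a membrane-anchored one, Srprb. Srpr had 102 TPM, and its graft libraries lay between 248 and 256 CPM, inside the mouse-host range of 183 to 400. Its rat-host mean of 228 CPM was its lowest, and the experiments did not differ past the threshold (edgeR, adjusted p = 0.423). Srprb had 141, 143, 134 and 120.5 CPM in the rat host. All other libraries were lower, but mouse-host experiment 2 replicate 4, at 120.2 CPM, all but reached the lowest rat-host library at 120.5. The mouse-host median was 68.9 and the control median 59.9. The log2 fold change for the rat host against the mouse host was 1.03 ± 0.26 (edgeR, adjusted p = 0.158). Srprb differed among experiments (adjusted p = 0.0289) but not when any 1 of the 4 rat-host libraries was left out (0.0705 to 0.105).

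In the translocon, Sec61a1 forms the channel with Sec61b and Sec61g, Sec62 and Sec63 serve transport after translation, Tram1 helps signal sequences to insert, and Sil1 is the nucleotide exchange factor of the ER chaperone BiP. Sec61a1 had 268, 259, 403 and 271 CPM in the rat host and 108 to 252 in control and mouse-host libraries. The graft reached 257, so every rat-host library lay above the other 28. Its log2 fold change against the mouse host was 0.81 ± 0.18 (edgeR, adjusted p = 0.11), and the test among experiments missed the threshold (0.0668).

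Sec61b, a small channel subunit, was highest in the graft with 260, 283, 224 and 268 CPM. Mouse-host libraries lay between 112 and 229 with a median of 140, control libraries between 148 and 234 with a median of 190, and rat-host libraries between 146 and 180. Only graft replicate 3 fell into the range of the others. Sec61b differed among experiments (edgeR, adjusted p = 0.0038), and its log2 fold change for the graft against the mouse host was 0.84 ± 0.17 (adjusted p = 0.128). Sec61g averaged 46.0 CPM in the graft and 25.5 to 42.8 in the other experiments.

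Sec62 was highest in control experiment 1, at 116 ± 16.7 CPM (SD, n = 4), and lowest in the rat host, at 43.1 ± 5.76. Tram1 averaged 159 ± 14.5 CPM in the rat host and 201 to 294 in the other experiments. Both differed among experiments (edgeR, adjusted p = 0.00491 for Sec62 and 0.0179 for Tram1, the second 0.0589 without rat-host replicate 4). Sec63 and Sil1 were also lowest in the rat host, at 39.1 and 244 CPM, and did not pass that test. In the rat host the channel gene Sec61a1 was at its highest while Sec62, Sec63, Tram1 and Sil1 were at their lowest.

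Sec61a2, the second channel-forming gene, took 4.75% to 14.1% of the summed TPM of Sec61a1 and Sec61a2. Its libraries ranged from 0.0348 to 30.2 CPM, with a wide spread inside experiments. Tram2 lay at 0 or under 1 CPM in most libraries and reached 16.4 CPM in 1 mouse-host and 15.7 in 1 graft library.

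TRAP, the translocon-associated protein complex, sits beside Sec61 and helps some signal peptides to gate the channel, with Ssr1 to Ssr4 as its 4 subunits. Ssr2 had the largest ratio of highest to lowest experiment mean among the called members, 4.60. The rat-host libraries had 673, 563, 717 and 577 CPM. Mouse-host experiment 1 had 337, 301, 258 and 363, and the other mouse-host experiments ran from 97.0 to 196. Control libraries lay between 119 and 238 and graft libraries between 158 and 240. Each rat-host library was above all other 28, and each library of mouse-host experiment 1 was above all remaining libraries. Ssr2 differed among the 8 experiments (edgeR, adjusted p = 1.94e-09).

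The log2 fold change of Ssr2 was 1.77 ± 0.39 for the rat host against the mouse host (edgeR, adjusted p = 0.108) and 2.08 ± 0.45 against control (adjusted p = 0.122). When mouse-host experiment 1 was left out, the first was 2.13 ± 0.16 and the second 2.08 ± 0.18. This omission took out the mouse-host experiment nearest to the rat host, and with it spread between experiments. A small p-value there would follow from that choice and is no support. Ssr2 was the only member called among the 4 mouse-host experiments (edgeR, adjusted p = 0.00119), where 1.87% of all genes and 8.7% of those averaging at least 100 CPM were called. At an unadjusted p under 0.05 there were 8 members (all genes 14.5%). Of the summed TPM of the TRAP genes, Ssr2 took 46.2% ± 4.89 in the rat host, 26.0% ± 2.90 in mouse-host experiment 1 and 13.4% to 18.1% in the other experiments.

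Ssr4 was the most abundant member and was highest in the graft, with 588, 711, 843 and 1025 CPM. The other libraries lay between 368 and 595 CPM, so only graft replicate 1 fell into their range. It differed among experiments (edgeR, adjusted p = 0.00291), and its log2 fold change for the graft against the mouse host was 0.65 ± 0.15 (adjusted p = 0.151). Ssr1 was highest in the rat host (128 to 152 CPM, beside 34.8 to 96.5 in the mouse host), and Ssr3 averaged 103 CPM both there and in the graft, beside 52.4 to 85.7 elsewhere. Ssr1 passed the test among experiments at an adjusted p of 0.0413, which 13 of the 32 single-library omissions moved past 0.05. Ssr3 had an adjusted p of 0.0554.

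Within TRAP the arms with the highest mean differed by gene, with Ssr1 and Ssr2 highest in the rat host and Ssr4 highest in the graft and lowest in the rat host. The summed CPM of the 4 genes was 1298 ± 42.8 (SD, n = 4) in the rat host, 1205 ± 207 in the graft and 755 to 976 in the other experiments.

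**Figure D3:**
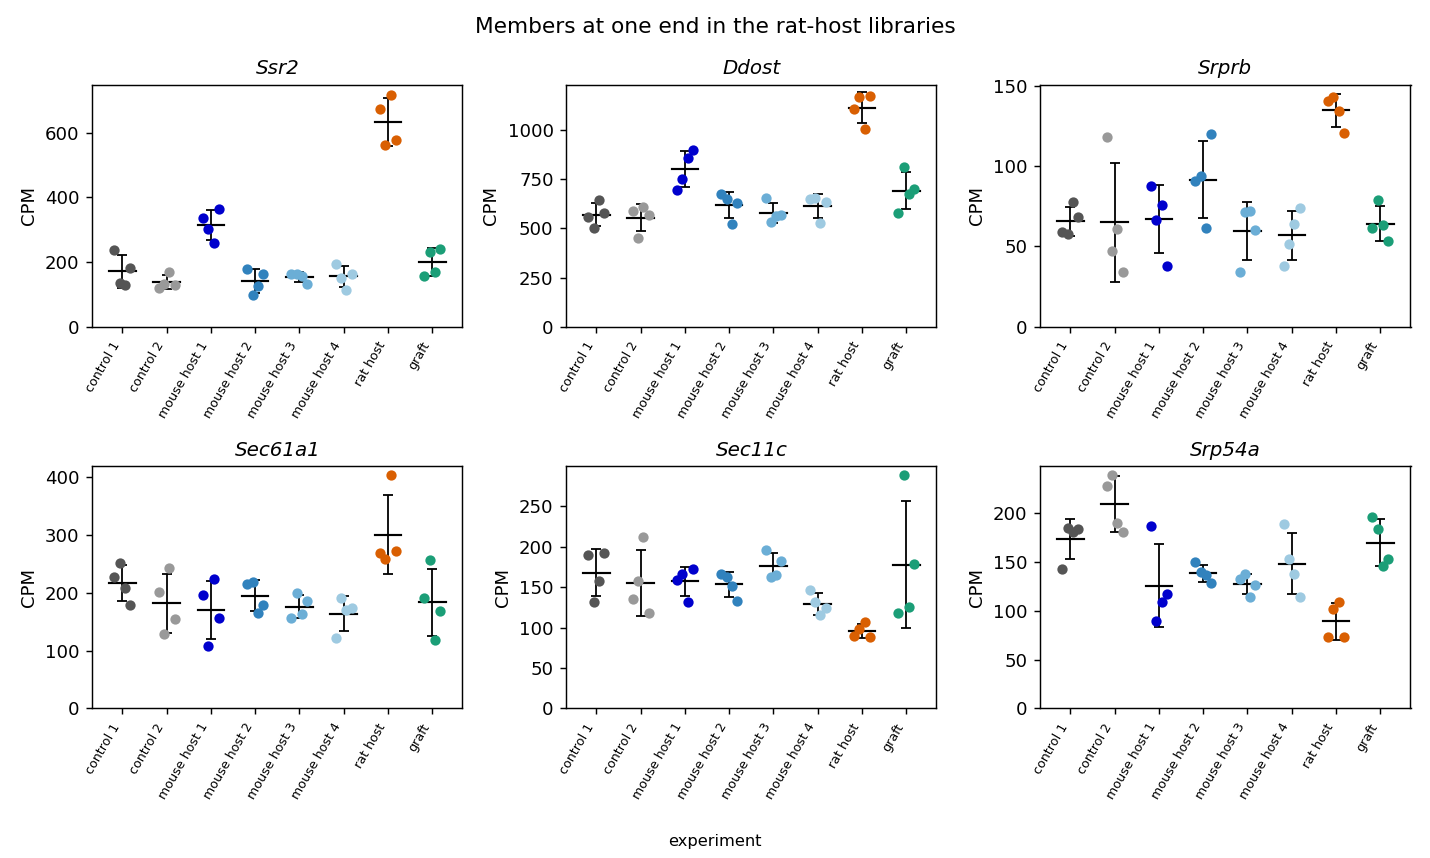
CPM of 6 members in each of the 32 libraries (points), with the mean (horizontal bar) and SD (whiskers) of each experiment. Ssr2, Ddost, Srprb and Sec61a1 lie above all other libraries in the rat host and Sec11c below all of them, while Srp54a of the rat host overlaps with mouse-host libraries.

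The signal peptidase cuts the signal peptide with 1 of 2 catalytic subunits, Sec11a or Sec11c, and has the accessory subunits Spcs1, Spcs2 and Spcs3. Spcs1 was highest in the graft, with 624, 777, 711 and 623 CPM. The other 28 libraries lay between 281 and 564 CPM, and the highest of them, mouse-host experiment 1 replicate 1, stood apart from the other 3 of its experiment (318 to 348). The graft thus did not overlap with any other experiment. Spcs1 differed among experiments (edgeR, adjusted p = 0.00108), and its log2 fold change was 0.83 ± 0.15 against the mouse host (adjusted p = 0.11) and 0.76 ± 0.17 against control (adjusted p = 0.246).

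Spcs2, a non-catalytic subunit, had 487, 652, 612 and 659 CPM in the graft. Mouse-host libraries ran from 290 to 563 with a median of 362, control libraries from 302 to 454 and rat-host libraries from 352 to 397. All but graft replicate 1 were above every other library. Spcs2 differed among experiments (edgeR, adjusted p = 0.00361), with a log2 fold change of 0.63 ± 0.19 for the graft against the mouse host (adjusted p = 0.255). Spcs3 ranged from 20.5 to 90.7 CPM and did not differ past the threshold (adjusted p = 0.362).

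The catalytic subunits differed in their order of experiments. In the rat host Sec11c had 89.2, 98.4, 107 and 88.8 CPM, below the lowest of the other 28 libraries (115). Sec11a averaged 147 CPM in the rat host, 145 in mouse-host experiment 1, 152 in the graft and 80.5 to 105 in the other experiments. Sec11c made up 55.7% ± 5.29 (SD, n = 4) of the summed TPM of both genes in the rat host, 68.6% ± 8.26 in the graft, 67.9% to 77.4% in the mouse-host and 76.7% and 79.4% in the control experiments. Both genes passed the test among experiments (edgeR, adjusted p = 0.00662 for Sec11a and 0.0463 for Sec11c). For Sec11c 23 of the 32 single-library omissions ended the call, among them each omission of a rat-host library (up to 0.125).

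**Figure D4:**
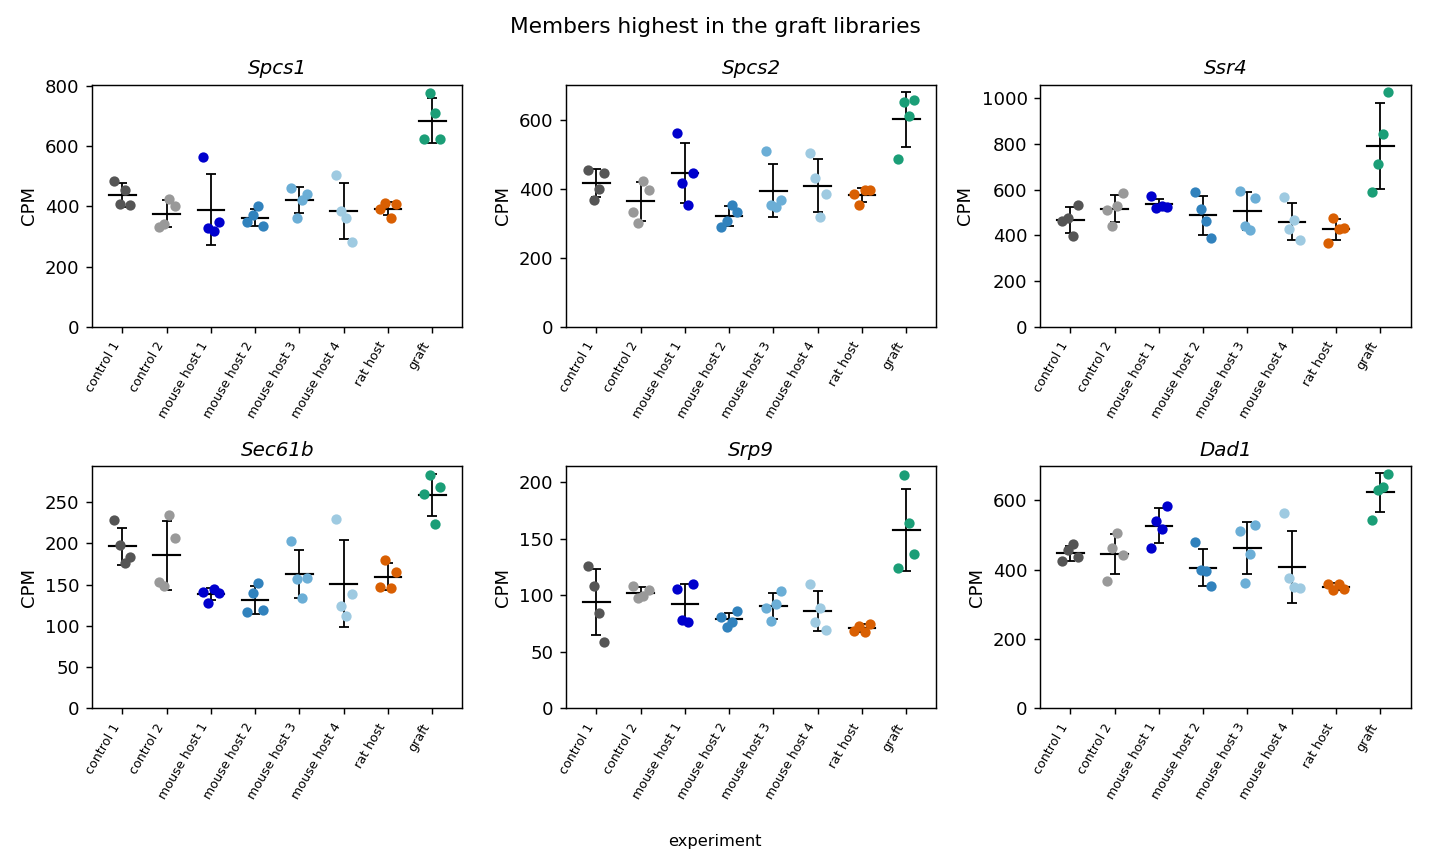
CPM of 6 members in each of the 32 libraries (points), with the mean (horizontal bar) and SD (whiskers) of each experiment. Graft libraries of Spcs1 do not overlap with any other library, and those of Spcs2, Ssr4, Sec61b, Srp9 and Dad1 overlap only at their lower end.

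The oligosaccharyltransferase was the most heavily read complex, with 3086 to 4029 summed CPM by experiment. Its Ddost subunit, a non-catalytic subunit that both forms of the enzyme share, had 1107, 1169, 1007 and 1176 CPM in the rat host. Mouse-host libraries ran from 523 to 901 with a median of 649, control libraries from 453 to 643 with a median of 573, and graft libraries from 581 to 811. Every rat-host library lay above all others, and mouse-host experiment 1 came next with a mean of 802. Ddost differed among the 8 experiments (edgeR, adjusted p = 1.44e-06). The log2 fold change was 0.82 ± 0.19 for the rat host against the mouse host (adjusted p = 0.128). It was 0.94 ± 0.11 without mouse-host experiment 1, an omission that took out the mouse-host experiment nearest to the rat host.

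Among the 4 mouse-host experiments Ddost had an adjusted p of 0.0754. It fell under 0.05, at 0.0367 to 0.0496, when any of 6 single libraries was left out (mouse-host experiment 1 replicate 1, mouse-host experiment 4 replicate 1, graft replicates 1 and 2, or control experiment 2 replicates 2 and 3).

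Dad1, a small subunit needed for a stable complex, went the other way. It had 543, 630, 639 and 676 CPM in the graft and 358, 342, 359 and 343 in the rat host. Mouse-host libraries ran from 345 to 584 with a median of 454 and control libraries from 367 to 506. Rat-host libraries thus lay at the foot of the whole range and 3 of 4 graft libraries at its top. The fitted difference of Dad1 between the rat host and the mouse host was not called, and its log2 fold change ran from -0.42 to 0.05 over the alternatives. Dad1 differed among experiments (edgeR, adjusted p = 0.00305), as did Ost4 (adjusted p = 0.018), which averaged 290 CPM in the graft, 177 in the rat host and 168 to 224 elsewhere. The Ost4 call was lost without graft replicate 2 (0.0692) or graft replicate 4 (0.0634).

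The other 4 members of the complex did not pass the test among experiments. Rpn1 and Rpn2, which help to hold the enzyme at the translocon, averaged 605 to 751 and 829 to 1146 CPM, with folds of 1.24 and 1.38 between the highest and lowest experiment. Stt3a, the catalytic subunit that acts during translocation, averaged 318 to 447 CPM. Stt3b, which acts after it, made up 6.54% to 15.3% of the summed TPM of both.

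KDEL receptors return ER proteins that have escaped to the Golgi. Kdelr1 was the most abundant of the 3, with 69.9 TPM, and had 72.3, 68.1, 62.9 and 64.5 CPM in the rat host. Mouse-host libraries ran from 26.9 to 58.9 with a median of 44.6, control libraries from 38.1 to 69.7 and graft libraries from 34.3 to 85.1. Rat-host libraries lay above all mouse-host libraries and overlapped with control and graft. Neither Kdelr1 nor Kdelr2 differed among experiments past the threshold (edgeR, adjusted p = 0.133 and 0.224).

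Kdelr3 had 0 reads in all 8 libraries of mouse-host experiments 1 and 4, and in mouse-host experiment 2 it was read only in replicate 4, at 18.5 CPM. It had 4.66 ± 2.57 CPM (SD, n = 4) in mouse-host experiment 3 and up to 14.2 CPM in control and 31 in the graft. The 18.5 and 14.2 CPM libraries are those with the highest fibroblast marker sums of their arms, and the part of such cells in these reads was not tested. Without mouse-host experiment 2 replicate 4 Kdelr3 was called among the mouse-host experiments (edgeR, adjusted p = 0.00995, beside 0.0749 with it) and among all 8 (0.00695, beside 0.0769). That omission leaves mouse-host experiments 1, 2 and 4 at 0 reads. The calls follow from taking out this library and are no support for a difference.

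In the rat host 6 members lay above all 16 mouse-host libraries in each of the 4 libraries (Sec61a1, Ssr1, Ssr2, Srprb, Ddost and Kdelr1), as 1.93% of all genes did, and Sec11c lay below all of them, as 1.64% of all genes did. Such shares, here and for the graft below, are of all genes tested and are not matched for abundance. Against all other 28 libraries Sec61a1, Ssr2, Srprb and Ddost were higher (all genes 1.26%) and Sec11c lower (all genes 0.982%). As these are levels in bulk samples, fewer cells of a type and less RNA per cell cannot be told apart. Fibroblast markers were at their lowest in the rat host, with Col1a2 at 0, and all 7 macrophage and all 4 adipocyte markers were at 0. Such zeros were not particular to the rat host. Macrophage marker sums reached at most 0.0904 CPM in mouse-host experiment 1. Adipocyte marker sums were 0 in mouse-host experiments 2 and 3 and in control experiment 2. In the rat host 1.62% of reads were mitochondrial, beside 1.69% to 3.41% in the other experiments. Mean T-cell and thymic epithelial marker sums were at their highest in the rat host, at 18.7 and 22.8 CPM, with Cd3d, Cd3e, Cd3g, Cd4 and Foxn1 at 0. The T-cell sum was 36.9 CPM in rat-host replicate 4 and 9.99 to 15.9 in its other libraries. Mouse-host experiment 1 replicate 2 had 37.0. The part of these cell types and of mitochondrial reads in the result was not tested.

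The rat-host arm also had the lowest level of the cargo. Pth averaged 43140 CPM there and 78429 to 107694 in the other experiments, and Chga, a granule protein, 121051 beside 204699 to 226973. Both fell in the rat host against the mouse host (edgeR, log2 fold change -1.0 ± 0.14 with adjusted p = 0.0354 for Pth, and -0.78 ± 0.09 with adjusted p = 0.0226 for Chga). Scg5, a chaperone of a prohormone convertase, fell as well, by 3.82 on the log2 scale (adjusted p = 0.0344). The summed CPM of the 36 members was 8519 ± 166 in the rat host, 8966 ± 810 in the graft and 7188 to 8223 in the other experiments. Without TMM scaling the members took 0.995% of reads in the rat host, 0.858% in the graft and 0.719% to 0.796% elsewhere. The order of the rat host and the graft thus depended on the scaling. Per 100 CPM of Pth and Chga the members had 5.20 ± 0.243 CPM in the rat host, 2.94 ± 0.624 in the graft and 2.36 to 2.82 elsewhere.

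The graft showed another set of genes. Spcs1, Ssr3, Srp9 and Srp19 lay above all 16 mouse-host libraries in each graft library, as 0.525% of all genes did, and 0 members lay below (all genes 0.358%). Spcs1 and Srp19 were above all other 28 libraries (all genes 0.198%). The summed CPM of the signal peptidase was 1669 ± 242 (SD, n = 4) in the graft and 966 to 1187 in the other experiments.

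Fold changes differed with transcript length, in the graft and between other experiments. All 9 members with transcripts under 1000 bases (Sec61b, Sec61g, Spcs1, Sec11c, Ssr4, Srp14, Srp19, Dad1 and Ost4) had positive log2 fold changes against the mouse host, with a median of 0.65, beside 0.18 for the 27 longer members. Among all genes averaging at least 100 CPM the medians were 0.21 for the 258 short ones and -0.03 for the 1306 longer ones. Of these, 79.8% of the short and 47.2% of the longer ones were positive. In the rat host against the mouse host the members' medians were -0.09 for the short and 0.41 for the longer ones, beside -0.18 and -0.03 among those abundant genes. In control experiment 2 against control experiment 1 the members' medians were -0.11 for the short and 0.04 for the longer ones. Positive there were 1 of the 9 short and 15 of the 27 longer members. Among the abundant genes the medians there were -0.19 and 0.02, with 15.5% and 54.2% positive. The part of transcript length in these results was not tested. Mitochondrial reads were at their highest in the graft, at 3.41% ± 0.521, and their part was not tested.

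**Figure D5:**
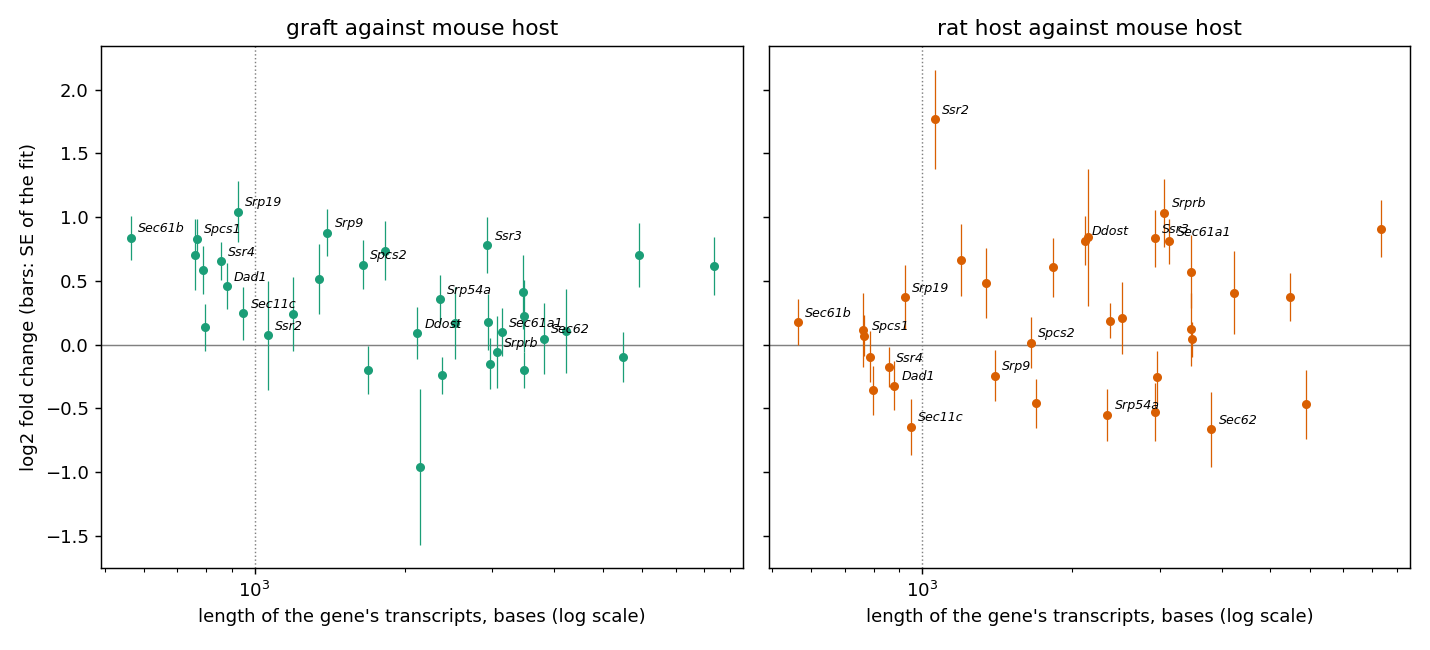
Log2 fold change of 34 members (points, with the SE of the fit as bars) against the length of their transcripts in bases (log axis), for the graft (left) and the rat host (right) against the mouse host. The dotted line marks 1000 bases, and all 9 points to its left are above 0 in the graft panel.

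In the mouse host against control 24 of the 36 members had a negative and 12 a positive log2 fold change (all genes 50.4% positive). There 0 members separated all mouse-host from all control libraries (all genes 0% higher, 0.00761% lower). The lowest unadjusted p belonged to Srp54a (0.00889), followed by Kdelr2 (0.0171), Sec61b (0.0247), Rpn2 (0.0324), Ssr3 (0.043) and Rpn1 (0.044), with Rpn1 and Rpn2 higher in the mouse host and the other 4 lower. Between the 2 control experiments, which differ in sex and age, edgeR called 0 members, as it did 0.00761% of all genes, with 2 members, Sec62 and Sil1, at an unadjusted p under 0.05 (all genes 7.15%). Sil1 was higher in control experiment 2 (all genes higher 4.55%) and Sec62 lower (all genes lower 2.6%).

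Promoter sequences from RefSeq (GRCm38.p6, the 250 bases before the start) were at hand for 27 of the 36 members. They were searched on both strands for the elements of the unfolded protein response, the stress pathway that raises many ER genes. The full ER stress element, CCAAT and CCACG with 9 bases of any kind between them, was in 0 of 27 (all 27025 genes 0.13%), and its second form, ATTGG and CCACG with 1 base between them, in 0 of 27 (all genes 0.037%). The element TGACGTGG was in 1, Kdelr3 (all genes 0.603%). The CCAAT box, which is part of the full element and of its second form, was in 11 members or 40.7% (all genes 37.5%), and the shorter CCACG, which all of them hold, in 15 or 55.6% (all genes 31%). The windows of the members had a median GC content of 59.6% beside 52.4% for all genes. A match is a description of the letters and says nothing of binding.

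Shown are the windows of 3 members that were above all mouse-host libraries in the rat host (Srprb at chr9:103202066-103202315 on the minus strand, Ssr1 at chr13:37994209-37994458 on the minus strand, Ddost at chr4:138304488-138304737 on the plus strand) and 3 that were in the graft (Spcs1 at chr14:31001667-31001916 on the minus strand, Srp9 at chr1:182124487-182124736 on the plus strand, Ssr3 at chr3:65392554-65392803 on the minus strand). They are printed 5′ to 3′ on the gene's strand, with CCAAT and CCACG in capitals wherever either strand holds them (ATTGG and CGTGG are their reverse complements). Kdelr1, also above the mouse host in the rat host, held neither and is not shown. Sec61a1 and Ssr2, above it in the rat host, and Srp19, above it in the graft, had no promoter sequence at hand and were not searched.
Srprb: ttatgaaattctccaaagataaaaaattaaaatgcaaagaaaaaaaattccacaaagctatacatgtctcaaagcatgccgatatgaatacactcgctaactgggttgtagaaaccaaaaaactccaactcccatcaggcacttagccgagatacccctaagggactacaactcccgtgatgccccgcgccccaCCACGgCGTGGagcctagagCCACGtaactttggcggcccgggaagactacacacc
Ssr1: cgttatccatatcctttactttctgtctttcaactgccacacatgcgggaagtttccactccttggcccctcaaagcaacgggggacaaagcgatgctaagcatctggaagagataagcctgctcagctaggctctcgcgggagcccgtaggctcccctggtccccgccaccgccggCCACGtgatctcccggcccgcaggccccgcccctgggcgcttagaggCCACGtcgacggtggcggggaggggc
Ddost: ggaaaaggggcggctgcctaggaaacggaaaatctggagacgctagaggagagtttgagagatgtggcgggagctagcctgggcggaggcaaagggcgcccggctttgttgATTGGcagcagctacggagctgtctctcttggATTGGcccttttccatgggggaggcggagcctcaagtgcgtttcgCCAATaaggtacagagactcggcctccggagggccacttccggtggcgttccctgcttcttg
Spcs1: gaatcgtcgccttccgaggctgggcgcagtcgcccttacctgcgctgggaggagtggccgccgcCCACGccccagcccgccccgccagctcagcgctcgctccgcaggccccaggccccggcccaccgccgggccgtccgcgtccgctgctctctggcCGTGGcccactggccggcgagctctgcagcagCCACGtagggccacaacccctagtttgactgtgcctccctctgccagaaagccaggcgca
Srp9: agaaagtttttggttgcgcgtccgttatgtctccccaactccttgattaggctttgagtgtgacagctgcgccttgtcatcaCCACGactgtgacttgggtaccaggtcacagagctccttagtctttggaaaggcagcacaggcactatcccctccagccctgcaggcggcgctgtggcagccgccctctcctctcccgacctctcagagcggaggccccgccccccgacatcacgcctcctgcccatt
Ssr3: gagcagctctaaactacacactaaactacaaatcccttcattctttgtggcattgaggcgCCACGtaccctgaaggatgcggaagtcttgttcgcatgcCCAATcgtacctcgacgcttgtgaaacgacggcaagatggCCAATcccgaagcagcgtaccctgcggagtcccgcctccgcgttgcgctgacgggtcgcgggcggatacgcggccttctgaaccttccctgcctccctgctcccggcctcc

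Srprb, Ssr1 and Spcs1 hold CCACG more than once and no CCAAT box, and Srp9 holds CCACG once. Ddost holds 3 CCAAT boxes and no CCACG, and Ssr3 holds both.

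Other genes of the pathway were taken from 7 lists. In the 5 arm comparisons only the cargo genes Pth, Chga and Scg5 were called, each lower in the rat host against the mouse host and against control. Hspa5, which encodes BiP, the chaperone that pulls chains through the translocon, averaged 2334 ± 373 CPM in the graft, 1966 ± 86.5 in the rat host, 1223 to 1434 in the mouse-host experiments and 1647 and 1611 in control. It differed among the 8 experiments (edgeR, adjusted p = 2.18e-05) but not in the graft against the mouse host (log2 fold change 0.82 ± 0.13, adjusted p = 0.0809). By list, the test among experiments called 3 of 7 further oligosaccharyltransferase and peptidase genes and 1 of 2 further SRP genes. It called 2 of 6 BiP-cycle genes, 1 of 7 tail-anchor genes, 1 of 16 membrane-insertion genes and 1 of 6 stress sensors. Of the 6 cargo genes 3 were tested there, and all 3 were called. Among all genes tested 10.9% were called, and 38.2% of those averaging at least 100 CPM.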

How the data were processed

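RNA was measured in 32 libraries. Per the submitters' processing notes reads were quantified with Salmon on GRCm39; its version and the transcript set are not given in the sources at hand. The authors deposited, for each transcript, an expected count (estimated reads), its TPM and its effective length. Of 116747 transcripts, 115685 matched a gene of the reference annotation and 1062, with 0.493% of reads, did not. Expected counts were summed per gene and rounded. TPM was summed per gene.

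Arms were compared with edgeR 4.0.16 (quasi-likelihood test, TMM scaling, filterByExpr) on the sums of the 4 libraries of each experiment. Experiments were compared with the same test on the 32 libraries. P-values were Benjamini-Hochberg adjusted over all genes tested and called under 0.05. R 4.3.3, limma 3.58.1 and DESeq2 1.42.0 served the alternatives. The code was tested on simulated data.

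The members and lists were chosen with earlier results of these data known. All 36 members are accounted for. Library values are given for members called between arms, for the 8 with the smallest p among experiments and for the most abundant of each complex, and for others named after their values were seen. Other pathway genes are named where called between arms, with Pth, Chga and Hspa5. Alternatives were other scalings, filters and tests, TPM with pseudocounts of 1 and 0.1, a replicate block, and leaving out libraries or experiments.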

Additional observations from a re-analysis of the deposited data

Results flagged for a closer look

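Outlying libraries were sought in 112 groups of 4 libraries, the 7 complex sums and the most abundant member of each complex, by experiment. Other named members were not tested. In 9 groups the gap of a library to the nearest other, divided by the group's range, exceeded Dixon's critical value for 4 samples. Chance marks about 1 group in 20. Mouse-host experiment 4 replicate 1 was high in 3 of them, with a TRAP sum of 938 CPM (others 685 to 722), Srp14 at 319 CPM (others 147 to 176) and Dad1 at 563 CPM (others 345 to 376). Mouse-host experiment 1 replicate 1 was high for Spcs1, at 564 CPM (others 318 to 348), and for Ssr4, at 572 CPM (others 521 to 527). The KDEL receptor sum was high in control experiment 1 replicate 1, at 167 CPM (others 130 to 134), and in graft replicate 4, at 195 CPM (others 127 to 134). The SRP sum was low in control experiment 2 replicate 3, at 804 CPM (others 871 to 877). The oligosaccharyltransferase sum was low in rat-host replicate 3, at 3815 CPM (others 4080 to 4120).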

How the results depend on the processing

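No member was called between arms, so no called fold change could turn. Fold changes that were not called did: 359 values under the alternatives had the other sign and 10838 kept sign and call. Examples are Dad1 in the rat host against control (-0.42 to 0.14), Sec61b there (-0.32 to 0.26) and Tram2 in the graft against control (-4.12 to 3.70). The members' fold changes that the report gives with an SE kept their sign. The number of members called stayed the same, or within 1.5 times, under RLE and upper-quartile scaling, without Pth and Chga, with control experiment 1 thinned and with the Srp54 copies added together. In brackets stands the share of all genes called. Among the 8 experiments the number was 25 with DESeq2 (19.5%), 16 without a filter (8.1%) and 18 with a stricter filter (14.1%), beside 17 (10.9%). On TPM it was 21 on log2(TPM + 1) (24.9%), 22 on log2(TPM + 0.1) (22.8%) and 19 on log2(TPM + 1) without a filter (11.9%). For the rat host against the mouse host it was 6 with DESeq2 (5.69%), 1 without a filter (0.873%), 1 with a stricter filter (2.27%), 3 on log2(TPM + 1) (3.72%), 3 on log2(TPM + 0.1) (3.28%), 5 on log2(TPM + 1) without a filter (4.89%), 11 with single libraries as replicates (5.91%) and 10 with limma voom and experiment as a random effect (7.94%), beside 0. For the rat host against control the same 8 settings gave 5 (5.59%), 1 (0.747%), 1 (1.69%), 4 (3.8%), 3 (3.64%), 4 (4.73%), 9 (6.78%) and 11 (10.5%), beside 0. For the graft against the mouse host DESeq2 gave 5 (6.54%), log2(TPM + 1) without a filter 3 (3.04%), single libraries 9 (3.63%) and voom 9 (2.41%), and for the graft against control DESeq2 gave 2 (4.01%), single libraries 5 (1.35%) and voom 6 (1.12%), beside 0. Voom called 1 member, Srp54a, in the mouse host against control (0.32%). Among the 4 mouse-host experiments it was 3 with DESeq2 (5.11%), 2 with the stricter filter (2.99%), 3 on log2(TPM + 1) (3.86%), 3 on log2(TPM + 0.1) (3.77%), 2 on log2(TPM + 1) without a filter (1.94%) and 2 without the libraries high in fibroblast markers (1.52%), beside 1. The cause was not tested. Leaving out 1 library gave 13 to 18 among the 8 experiments and 1 to 3 among the mouse-host experiments. No whole experiment was left out of those tests among experiments. Between arms, leaving out 1 library or experiment gave 0 to 2 for the rat host against the mouse host and 0 to 2 against control. Upper-quartile scaling moved the median gene to -0.13 in the rat host against the mouse host. Libraries with the same replicate number did not deviate together (median r = -0.00268 over 112 pairs, 0 over 0.1, and 1 library closest to its own number), so they share only a number. With the replicate number as a block, single libraries gave 11 (6.24%) and 9 (3.2%) calls for the rat host and graft against the mouse host and 9 (6.79%) and 4 (0.974%) against control. The blocked tests over libraries gave 16 among the 8 experiments (9.74%), 1 among the mouse hosts (1.8%) and 0 between the controls (0%). A rat-host or graft arm of 1 experiment limits the precision.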
